A study of Mus musculus with 16 samples.

Results

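The genes described here are Myc, its partner Max and 8 genes that act in polyamine synthesis or ribosome production and are commonly counted among MYC targets: Srm, Odc1, Nop2, Nop56, Rrp12, Ncl, Npm1 and Fbl. They are the 10 rows of the count table that carry these symbols, of 49164 genes with values, and all 10 passed the filter on low counts that left 14633 genes. The group was chosen by pathway with measured changes already known, namely the fold changes that showed some of them lower with Mel321-31 and Mel322-34 than with MGO.53. Their values in those comparisons with the control are therefore a description, with no test behind them. The comparison with Mel321-35 and the comparisons between antibodies were not used to list them, as far as is known, but they draw on some of the same libraries.

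The series asked which genes and pathways change in melanoma cells exposed to antibodies described as decoys in its title. Their stated target is HSP70 outside the cell, a chaperone that normally works inside it. The cells were B16-F10, a pigmented mouse melanoma line labelled wild type and grown in serum, so every group is the same unmodified line. For 24 hours they were kept with 1 of 4 antibodies, which were Mel321-31 (n = 4), Mel322-34 (n = 4), Mel321-35 (n = 3) and the isotype control MGO.53 (n = 4). No group was left without antibody in the data at hand. Polyadenylated RNA was sequenced in strand-specific libraries. The labels number the replicates as biological but do not say whether they were separate cultures, and p-values here reflect no more than the spread from sample to sample, which may be technical.

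Library totals lay between 19446531 counts (MGO.53 replicate 2) and 37957845 (Mel321-31 replicate 3). The mitochondrial share lay between 1.85% and 2.47% and was highest in MGO.53 replicate 2. MGO.53 replicates 2, 3 and 4 had fewer counts and a higher mitochondrial share than any library of the other antibodies. MGO.53 replicate 1 had 33529927 counts and a share of 1.95%. The part of these differences in the results was not tested. All 8 melanocyte markers examined were present, with a summed level of 30915 to 32259 CPM (counts per 1000000 of the library) over the 15 libraries. Of 6 epithelial markers, Krt8, Krt18 and Cdh1 reached 1 CPM and Epcam was at 0 in all libraries. The summed level of those 6 was 4.23 to 6.57 CPM with Mel321-31, 5.90 to 11.5 CPM with Mel322-34, 1.03 to 11.7 CPM with Mel321-35 and 10.7 to 15.9 CPM under MGO.53. One Mel321-35 library, replicate 1, is the sole batch 2 sample according to the labels. A set of 95 transcripts was picked for a level in it at least 8-fold below a batch 1 mean of at least 1 CPM. Their sum was 11.7 CPM in it and 152 to 642 CPM in the 14 batch 1 libraries, a gap that follows from that choice. This batch 2 library was left out of the tests. Its values are given apart from those of the other 2 Mel321-35 libraries.

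MYC is a transcription factor that binds DNA as a pair with MAX, preferably at the E-box CACGTG, and it promotes cell growth. Much of that growth programme is the making of ribosomes in the nucleolus, where ribosomal RNA is transcribed, chemically modified, cut and packed with proteins. Polyamine synthesis, which supplies small charged molecules needed for translation and division, is another classical branch of the programme, and melanoma cells often have prominent nucleoli.

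Promoter sequences of some members were searched for the motif that MYC and MAX bind. RefSeq start sites on the GRCm38.p6 assembly were at hand for 5 of the 10 genes, Max, Odc1, Nop2, Nop56 and Ncl. A window of 250 bases before to 50 after the start was searched for CACGTG, which reads the same on both strands. The 100 bases before each start are printed on the gene's own strand, with 3 more bases for Max to complete its motif, in lower case with CACGTG in capitals.

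Nop2, chr6:125131783-125131882, plus strand: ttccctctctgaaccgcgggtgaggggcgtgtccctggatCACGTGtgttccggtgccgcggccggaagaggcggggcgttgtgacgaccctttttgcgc
Max, chr12:76962246-76962348, minus strand: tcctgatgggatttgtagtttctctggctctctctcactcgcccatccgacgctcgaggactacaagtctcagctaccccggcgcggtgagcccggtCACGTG
Odc1, chr12:17544773-17544872, plus strand: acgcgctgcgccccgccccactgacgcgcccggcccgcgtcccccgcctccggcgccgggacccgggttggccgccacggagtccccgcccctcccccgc
Nop56, chr2:130274312-130274411, plus strand: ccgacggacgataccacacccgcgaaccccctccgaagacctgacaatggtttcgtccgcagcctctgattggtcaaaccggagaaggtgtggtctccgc
Ncl, chr1:86359456-86359555, minus strand: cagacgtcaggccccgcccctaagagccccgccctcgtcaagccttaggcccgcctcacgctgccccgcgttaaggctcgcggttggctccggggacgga

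The E-box stood in 2 of these 5 windows. Its first base lay 60 bases before the start of Nop2 and 3 bases before the start of Max. The related motif CACGCG, searched on both strands, stood in 1 of the 5, the Odc1 window. Its first bases lay 180 and 101 bases before the start. The farther match is outside the stretch printed, and the nearer lacks only its first base there. Of 32851 mouse promoter windows of the same length, 7.15% held CACGTG and 9.27% held CACGCG. These matches describe letters in a window and are not evidence of binding. Sites outside the window were not searched, so a window without a match does not show that the gene lacks the motif.

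In cells with the control antibody the members ranged widely in level. Per kilobase of the longest protein-coding GENCODE M21 transcript, Npm1 stood at 873 ± 27.8 CPM per kb (SD, n = 4 here and for the next values), above 99.7% of tested genes. Ncl followed at 232 ± 3.58, Odc1 at 208 ± 1.69, Nop56 at 172 ± 2.75 and Nop2 at 125 ± 3.82 CPM per kb. Srm stood at 96.7 ± 3.64, Fbl at 69.0 ± 4.11, Max at 53.7 ± 3.76, Myc at 45.7 ± 3.00 and Rrp12 at 14.4 ± 0.394 CPM per kb, the last still above 67.1% of tested genes. The ranges of neighbours in this order did not overlap, although Max at its lowest (49.6) and Myc at its highest (49.5) nearly met. The Ncl transcript used is 8202 bases long, so a shorter one would raise its level per kb. Npm1 and Odc1 are known to have processed pseudogenes. In GENCODE M21, Nop56, Ncl and Odc1 contain small nucleolar RNA genes, Max overlaps an unclassified transcript, Gm47218, on its own strand, and Nop56 overlaps Idh3b on the opposite strand. The strand setting of the counting step was not given in the sources used, and the levels of these 5 genes are uncertain.

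Across the antibodies the members did not move as one. Myc, Srm, Nop2, Nop56 and Rrp12 were lower with Mel322-34 and with Mel321-35 than with MGO.53 in every batch 1 library. Of all genes, 5.92% were placed that way with Mel322-34 and 9.83% with Mel321-35, which had 2 libraries. The Mel322-34 results were known when the members were listed. Ncl, Npm1 and Fbl overlapped the control with each antibody. Odc1 was higher than the control in all Mel321-31 libraries, as were 4.61% of genes. The changes were small. The lowest fitted value was that of Myc with Mel322-34, 83.4% of the MGO.53 level.

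Myc, the transcription factor itself (ENSMUSG00000022346), had 91.8, 88.6, 89.8 and 90.5 CPM with Mel321-31. It had 90.7, 86.9, 87.3 and 91.0 CPM with Mel322-34 and 92.0 and 97.0 CPM with Mel321-35. With MGO.53 it had 100.2, 115.8, 102.6 and 108.9 CPM. Every antibody library was below every control library, and the control libraries were the more spread. On the log2 scale Myc changed relative to MGO.53 by -0.24 ± 0.043 (SE) with Mel321-31 and -0.26 ± 0.043 with Mel322-34. With Mel321-35 it was -0.18 ± 0.053, with a 95% interval of -0.28 to -0.068 and an adjusted p of 0.215 in edgeR's quasi-likelihood test. Without MGO.53 replicate 2, the library of highest Myc and fewest counts, the 3 values were -0.20, -0.22 and -0.14.

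Max, the partner that MYC needs to bind DNA (ENSMUSG00000059436), had 98.0, 97.4, 87.5 and 97.0 CPM with Mel321-31. It had 94.5, 98.6, 95.1 and 99.0 CPM with Mel322-34 and 98.3 and 96.7 CPM with Mel321-35. With MGO.53 it had 100.7, 112.9, 107.2 and 96.3 CPM. The control libraries reached higher, but MGO.53 replicate 4 fell among the antibody libraries, so the groups overlapped. Relative to MGO.53, Max differed on the log2 scale by -0.13 ± 0.046 with Mel321-31, -0.11 ± 0.046 with Mel322-34 and -0.095 ± 0.057 with Mel321-35, for which the adjusted p was 0.572. The ratio of Myc to Max counts was 0.909 to 1.03 with Mel321-31, 0.882 to 0.960 with Mel322-34, 0.936 and 1.00 in batch 1 with Mel321-35, and 0.957 to 1.13 with MGO.53.

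Srm, spermidine synthase (ENSMUSG00000006442), makes the polyamine spermidine from putrescine. It had 116.8, 113.8, 117.7 and 115.9 CPM with Mel321-31, 115.1, 110.8, 113.3 and 105.4 CPM with Mel322-34, and 114.7 and 118.3 CPM with Mel321-35. With MGO.53 it had 131.5, 122.1, 131.7 and 132.2 CPM. No antibody library reached the lowest control library, MGO.53 replicate 2. The log2 fold change was -0.16 ± 0.038 with Mel321-31, -0.22 ± 0.038 with Mel322-34 and -0.15 ± 0.047 with Mel321-35 (95% interval -0.25 to -0.057, adjusted p = 0.221, edgeR).

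Odc1, ornithine decarboxylase (ENSMUSG00000011179), supplies the putrescine and is the step before Srm. Odc1 had fitted changes of opposite sign to those of Srm, and smaller. It had no adjusted p under 0.05 with any antibody (edgeR). It had 485, 489, 479 and 472 CPM with Mel321-31, 455, 483, 487 and 483 CPM with Mel322-34, 464 and 474 CPM with Mel321-35, and 465, 460, 461 and 456 CPM with MGO.53. All 4 Mel321-31 libraries stood above all 4 control libraries, while the other groups overlapped the control. On the log2 scale Odc1 differed from MGO.53 by 0.065 ± 0.030 with Mel321-31, 0.052 ± 0.030 with Mel322-34 and 0.027 ± 0.037 with Mel321-35 (95% interval -0.048 to 0.10, adjusted p = 0.845, edgeR).

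Among the ribosomal RNA factors, Nop2 (ENSMUSG00000038279), which methylates a cytosine of the large subunit's RNA, had 307, 297, 315 and 313 CPM with Mel321-31. It had 295, 307, 295 and 304 CPM with Mel322-34, 308 and 302 CPM with Mel321-35, and 325, 310, 326 and 333 CPM with MGO.53. The Mel322-34 and Mel321-35 libraries were all below the control libraries, and Mel321-31 overlapped them through MGO.53 replicate 2. Nop2 had log2 fold changes of -0.071 ± 0.033 with Mel321-31, -0.11 ± 0.033 with Mel322-34 and -0.086 ± 0.040 with Mel321-35 (adjusted p = 0.451, edgeR).

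Rrp12 (ENSMUSG00000035049), which takes part in the maturation and export of both ribosomal subunits, had 58.0, 60.1, 62.0 and 60.7 CPM with Mel321-31. It had 56.8, 58.9, 53.5 and 56.5 CPM with Mel322-34, 53.4 and 60.4 CPM with Mel321-35, and 64.0, 60.9, 60.9 and 63.7 CPM with MGO.53. The Mel322-34 and Mel321-35 libraries again lay below the control libraries, Mel321-35 replicate 4 by less than 1 CPM, and those of Mel321-31 overlapped them. Rrp12 had log2 fold changes of -0.052 ± 0.047 with Mel321-31, -0.15 ± 0.047 with Mel322-34 and -0.14 ± 0.058 with Mel321-35 (adjusted p = 0.394, edgeR).

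Nop56 and Fbl sit in the same particle, the box C/D small nucleolar ribonucleoprotein that methylates ribosomal RNA, with Fbl as its methyltransferase. Nop56 (ENSMUSG00000027405) had 307 to 313 CPM with Mel321-31, 294 to 314 CPM with Mel322-34, 304 and 298 CPM with Mel321-35, and 317 to 329 CPM with MGO.53, so every batch 1 antibody library was lower. Its log2 fold change was -0.056 ± 0.031 with Mel321-31, -0.089 ± 0.031 with Mel322-34 and -0.095 ± 0.038 with Mel321-35 (adjusted p = 0.360, edgeR). Fbl (ENSMUSG00000046865) had 80.7 to 89.3 CPM with Mel321-31, 72.1 to 85.1 CPM with Mel322-34, 78.7 and 89.6 CPM with Mel321-35, and 78.5 to 89.7 CPM with MGO.53. Its groups overlapped throughout, and its log2 fold changes were 0.024, -0.031 and 0.024, each with an SE of at least 0.053.

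Ncl and Npm1 encode nucleolin and nucleophosmin, abundant nucleolar proteins that bind ribosomal RNA and chaperone assembling particles. Ncl (ENSMUSG00000026234) averaged 1965 ± 43.7 CPM with Mel321-31, 1943 ± 136 CPM with Mel322-34, 2017 CPM in the 2 batch 1 libraries of Mel321-35, and 1903 ± 29.4 CPM under the control antibody (SD, n = 4 for the others). Npm1 (ENSMUSG00000057113) averaged 1452 ± 64.8 CPM with Mel321-31, 1402 ± 77.2 CPM with Mel322-34, 1457 CPM with Mel321-35 and 1426 ± 45.5 CPM under MGO.53. The groups overlapped for both genes. Their log2 fold changes ran from -0.024 for Npm1 with Mel322-34 to 0.083 for Ncl with Mel321-35.

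**Figure D1:**
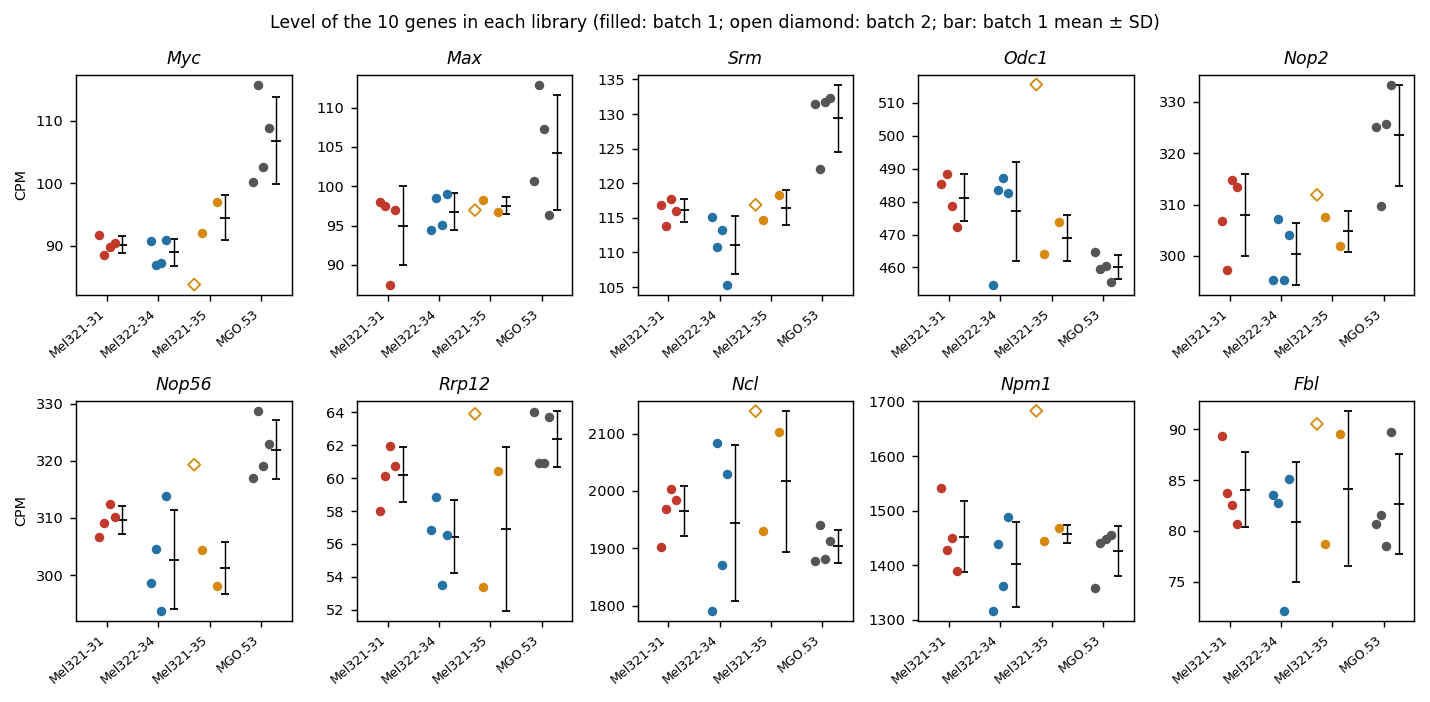
Level of each of the 10 genes in every library, in CPM on linear axes that do not start at 0 and differ between panels. Filled points are batch 1 libraries, open diamonds the batch 2 library, and bars the batch 1 mean ± SD. Myc, Srm and Nop56 lie below all MGO.53 points with each antibody in batch 1, and Fbl and Npm1 overlap. Of all genes, 5.38% lay below with Mel321-31, 5.92% with Mel322-34 and 9.83% with Mel321-35. The share below with all 3 at once was not counted, and the MGO.53 libraries are the same for each.

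In the fit over all genes, 2 members were below the threshold of adjusted p under 0.05 with Mel321-31, Myc and Srm, both lower. That fit called 3.53% of the tested genes, 2.13% of them lower and 1.41% higher. With Mel322-34 it called 3 members, Myc, Srm and Nop2, again all lower, against 6.87% of genes in either direction and 2.84% lower. The call of Srm with Mel321-31 was lost without Mel321-31 replicate 2 or 4 or MGO.53 replicate 4. That of Nop2 with Mel322-34 was lost without any 1 of Mel322-34 replicates 1, 3 and 4 and MGO.53 replicates 1, 3 and 4. All 4 Mel321-31 libraries lay below the control libraries for 3 members, against 5.38% of genes, and above them for 1 member, against 4.61%. With Mel322-34 that held for 5 members below, against 5.92% of genes, and none above, against 7.03%. Since results of these 2 comparisons were known when the genes were listed, the counts describe them and carry no weight as evidence.

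With Mel321-35 against MGO.53, edgeR called 0 of the 10 members, against 0.041% of genes (6 of 14633). At an unadjusted p under 0.05 there were 5 members, Myc, Srm, Nop2, Nop56 and Rrp12, against 10.5% of genes. DESeq2 and limma-voom also called 0 members and had 5 at that unadjusted level. The same 5 genes were lower in both batch 1 libraries than in all 4 control libraries, and 9.83% of genes were placed that way. Only 2 libraries of Mel321-35 entered the fit and the MGO.53 libraries were shared with the other comparisons, so these values are not an independent repeat. The median log2 fold change over the 10 genes was -0.054 with Mel321-31, -0.097 with Mel322-34 and -0.090 with Mel321-35, beside -0.0014, -0.0011 and -0.0012 over all tested genes.

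**Figure D2:**
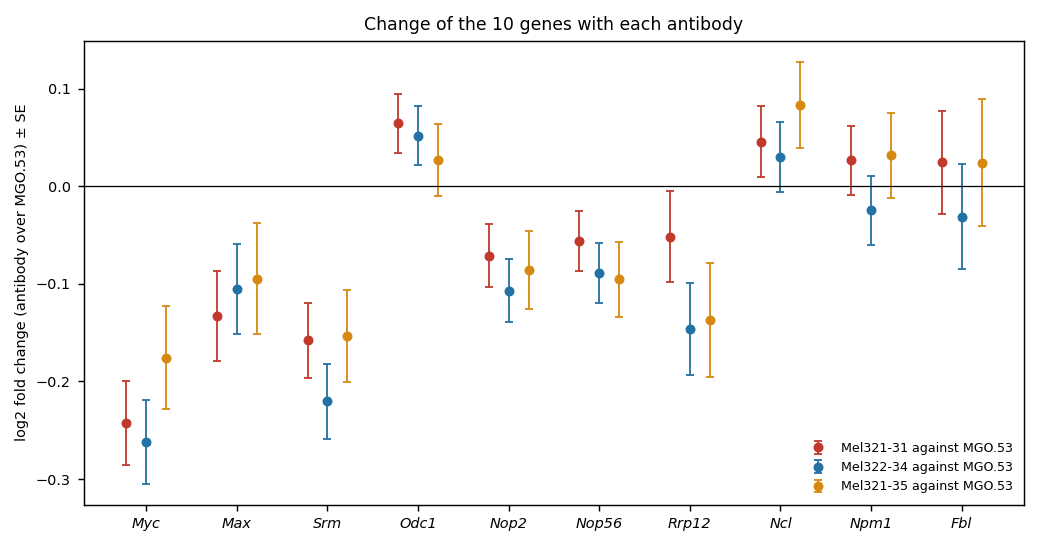
Log2 fold change of each of the 10 genes over MGO.53, with the SE of the fit as bars, for Mel321-31, Mel322-34 and Mel321-35. Myc (-0.24, -0.26 and -0.18) and Srm (-0.16, -0.22 and -0.15) lie lowest, while Odc1 and Ncl lie above 0 with each antibody.

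The members held 0.461% to 0.532% of all counts, mostly through Ncl and Npm1. Their summed level was 4961 ± 43.2 CPM with Mel321-31, 4859 ± 233 CPM with Mel322-34, 4999 ± 156 CPM with Mel321-35 (SD, n = 2) and, under the control antibody, 4920 ± 71.4 CPM (SD, n = 4 for the others). The log2 ratio of these means to that of MGO.53 was 0.012, -0.018 and 0.023, and without Npm1 and Ncl it was -0.043, -0.071 and -0.062. In bulk RNA a gene's lower level in each cell and fewer cells that express it cannot be told apart.

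Between antibodies the members lay close together. Mel321-31 against Mel322-34, Mel321-31 against Mel321-35 and Mel322-34 against Mel321-35 each gave 0 called members of 10 in edgeR, DESeq2 and limma-voom. edgeR called 0.0205%, 0.103% and 0.26% of all genes in those comparisons. No member had an unadjusted p under 0.05 in edgeR, against 6.96%, 8.06% and 9.61% of genes. For Mel321-31 against Mel322-34, DESeq2 and limma-voom each had 1 member at that unadjusted level. Rrp12 was nearest to a difference, with 60.2 ± 1.65 CPM with Mel321-31 and 56.4 ± 2.22 CPM with Mel322-34 (SD, n = 4 each). Its log2 difference was 0.094 (95% interval -0.00083 to 0.19, adjusted p = 0.725 in edgeR).

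Myc differed by 0.019 between Mel321-31 and Mel322-34 on the log2 scale (95% interval -0.068 to 0.11). It differed by -0.067 between Mel321-31 and Mel321-35 (-0.17 to 0.040) and by -0.086 between Mel322-34 and Mel321-35 (-0.19 to 0.021). In the comparisons with Mel321-35 the Myc libraries did not overlap, being lower with Mel321-31 and with Mel322-34. Nop56 was higher with Mel321-31 than with Mel321-35 in the same sense. Libraries failed to overlap in this way for 17.6% and 18% of all genes in these 2 comparisons. Srm differed by 0.063 (-0.016 to 0.14), -0.0046 (-0.10 to 0.091) and -0.067 (-0.16 to 0.029) in the same order. A p above the threshold does not show that the antibodies act alike, and these intervals extend to -0.19 for Myc and -0.16 for Srm.

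The batch 2 library of Mel321-35 placed the members differently from the batch 1 libraries of that antibody. Its Myc level of 83.8 CPM was below all 14 batch 1 libraries, and its Srm (116.9 CPM), Max (97.0 CPM), Nop2 (312 CPM) and Nop56 (319 CPM) levels were within their range. Odc1 at 516 CPM, Ncl at 2139 CPM, Npm1 at 1683 CPM and Fbl at 90.5 CPM were above that range. Rrp12 at 63.9 CPM was at its upper end, above it by less than 0.05 CPM on the scaling of all 15 libraries and below MGO.53 replicate 1 on the scaling of the values given above. Of all tested genes, 14.8% were above the batch 1 range in this library, 14.1% below and 71.2% within. No MGO.53 library of batch 2 was at hand, so batch and antibody cannot be told apart for it.

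Length of the transcript moved with the change of all genes. Over 10156 genes the Spearman correlation of log2 fold change with length was 0.38 with Mel321-31, 0.53 with Mel322-34 and 0.12 with Mel321-35. These are correlations across genes, which are not independent replicates, and longer transcripts were the higher ones. The median length was 3232 bases, and Srm at 1338 bases, Fbl at 1197 and Npm1 at 1633 are short, whereas Ncl at 8202 and Rrp12 at 4340 are long. With the trend removed from each library, Myc was at -0.23 with Mel321-31 and at -0.23 with Mel322-34. Srm was at -0.12 with Mel321-31, where it was no longer called, and at -0.15 with Mel322-34, where it was. Nop2 with Mel322-34 was at -0.087 and no longer called, and Rrp12 at -0.18 was newly called. Ncl changed sign with both antibodies, and Npm1 and Fbl did so with Mel322-34, to 0.035 and 0.049. The shift of Ncl rests on the 8202 bases of its longest protein-coding transcript, and a shorter one was not tried. With Mel321-35 the values of Myc and Srm were -0.18 and -0.13.

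**Figure D3:**
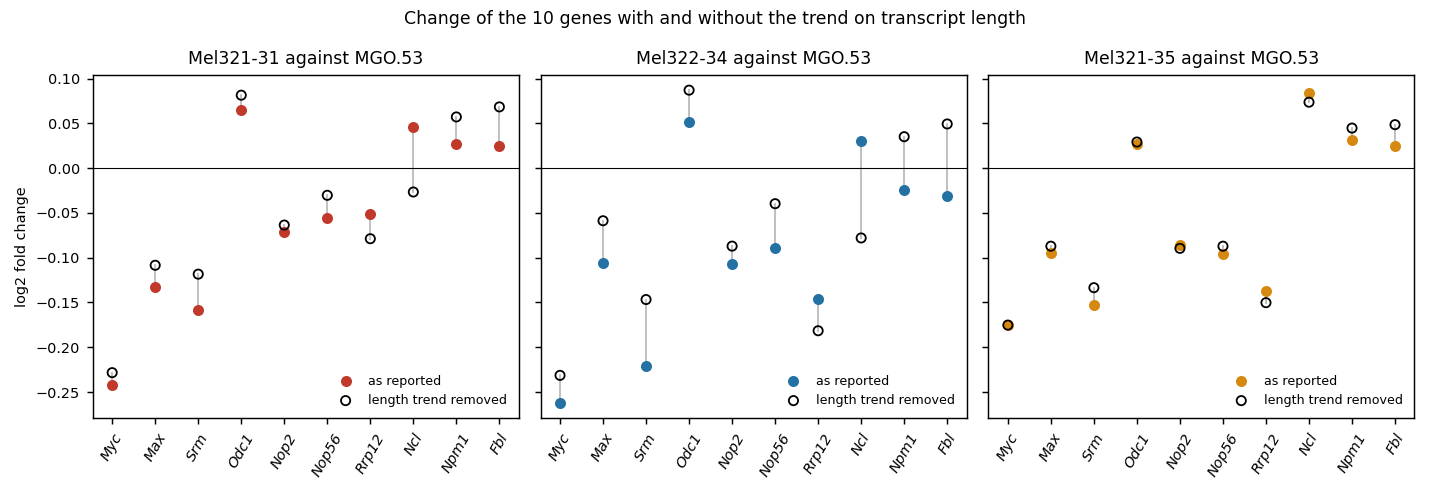
Log2 fold change of each of the 10 genes over MGO.53 as reported (filled) and with the trend on transcript length removed (open), 1 panel per antibody. Myc moves little and Srm moves toward 0 with Mel321-31 and Mel322-34. Ncl, with the 8202 bases of its longest protein-coding transcript as its length, moves below 0 with both (-0.027 and -0.078).

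The 95 transcripts nearly missing from the batch 2 library also differed between the groups of batch 1. Their summed level was 152 to 236 CPM with Mel321-31, 204 to 568 CPM with Mel322-34, 282 and 448 CPM with Mel321-35, and 340 to 642 CPM with MGO.53. With that sum as a covariate, 0 members were called with Mel321-31, where Myc was at -0.18 and Srm at -0.17 on the log2 scale. With Mel322-34, 2 were called, Myc at -0.23 and Srm at -0.23. The Mel321-31 and MGO.53 libraries do not overlap in this sum, so in that comparison the sum and the antibody cannot be told apart. Nor do they overlap in the summed epithelial markers given above, whose part in these results was not tested.

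Beyond the members, 181 tested genes of 7 related lists were followed. The lists were written with earlier results of these data known. The genes described 1 by 1 were picked because they were called with Mel321-31 or Mel322-34. Their p-values from the fit over all genes, and the placing of their libraries, describe them and carry no weight as separate evidence. Of the 181, 2 were higher and 2 lower with Mel321-31, 4 higher and 11 lower with Mel322-34, and none passed with Mel321-35. With Mel321-35, 24 of the 181 had an unadjusted p under 0.05, where 10.5% of all genes did. Over all genes, edgeR called 1.41% higher and 2.13% lower with Mel321-31, 4.03% higher and 2.84% lower with Mel322-34, and 0.0342% higher and 0.00683% lower with Mel321-35. For Mel321-35, DESeq2 called 2 of the list genes and limma-voom 0. Single libraries weighed on these counts. With Mel321-31, 19 list genes passed without Mel321-31 replicate 1 and 8 without MGO.53 replicate 3. None passed without MGO.53 replicate 2, 1 without Mel321-31 replicate 2 or 4, and 2 without Mel321-31 replicate 3 or MGO.53 replicate 1 or 4. With Mel322-34, leaving out its replicate 3 left 4 list genes, leaving out MGO.53 replicate 2 left 8 and leaving out replicate 4 of that control left 6. For each of the other libraries the count was 12 to 15.

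Of 20 genes of the Myc network, which holds the MXD and MLX relatives of Myc and regulators of its protein, none passed with Mel321-31 and 2 passed with Mel322-34. Mycbp2, a ubiquitin ligase that binds MYC, was higher at 77.6 CPM with Mel322-34, against 67.5 CPM with MGO.53 (log2 0.20 ± 0.056, adjusted p = 0.0282, edgeR). With the trend on transcript length removed, Mycbp2 was at 0.033 and not called, and its call held in 15 of 23 alternatives. Ruvbl2, an ATPase of chromatin complexes that associates with MYC, was lower at 97.6 CPM, against 109 CPM (log2 -0.16 ± 0.045, adjusted p = 0.0287, edgeR). The medians of the list were -0.018, 0.0045 and -0.048 with Mel321-31, Mel322-34 and Mel321-35. Mycn and Mycl were too low to be tested.

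In polyamine metabolism, 14 genes were tested. Azin1, the antizyme inhibitor that protects Odc1 protein from degradation, had 187, 201, 199 and 198 CPM with Mel321-31 and 190, 191, 201 and 203 CPM with Mel322-34. It had 171, 171, 183 and 184 CPM with MGO.53, lower in each control library than in any of those 8. The log2 fold change was 0.15 ± 0.038 with each of these antibodies (adjusted p = 0.0273 with Mel321-31 and 0.0195 with Mel322-34, edgeR). With Mel321-35 it was 0.18 ± 0.046 and the adjusted p was 0.148. With Mel322-34, Atp13a3, a polyamine transporter, rose by a log2 of 0.16 ± 0.044 to 260 CPM, against 234 CPM with MGO.53 (adjusted p = 0.0321, edgeR). Eif5a, the translation factor that carries the spermidine-derived residue hypusine, was at 1145 CPM with Mel322-34, against 1250 CPM with MGO.53 (log2 -0.13 ± 0.026, adjusted p = 0.00490, edgeR). The list's medians were -0.013, -0.050 and -0.035.

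None of the 15 genes of RNA polymerase I and its factors, which transcribe ribosomal RNA, passed with any antibody. Their medians were 0.0036, -0.017 and 0.014, and 7, 8 and 7 of the 15 had a log2 fold change below 0. Of 13 genes for small nucleolar particles and ribosomal RNA modification, 1 fell with Mel321-31 and 2 with Mel322-34, and the medians were -0.084, -0.092 and -0.038. With Mel321-31 and with Mel321-35, 9 of the 13 had a log2 fold change below 0. With Mel322-34 all 13 did, where 50.3% of all genes did. That share is over genes of all lengths, and shorter transcripts were in general the lower ones with this antibody (Spearman correlation 0.53). The part of length in the signs of these 13 was not tested. Nop10, a core protein of the box H/ACA particle, fell to 61.9 CPM with Mel321-31 and 62.6 CPM with Mel322-34, against 71.5 CPM with MGO.53 (log2 -0.21 ± 0.056, adjusted p = 0.0379, and -0.19 ± 0.057, adjusted p = 0.0413, edgeR). Its call held in 13 of 23 alternatives with Mel321-31 and in 12 of 23 with Mel322-34. Snu13, which binds box C/D RNAs beside Nop56 and Fbl, fell to 51.0 CPM with Mel322-34, against 57.5 CPM with MGO.53 (log2 -0.18 ± 0.049, adjusted p = 0.0295, edgeR).

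In the small subunit processome, 1 of 34 genes passed with Mel321-31 and with Mel322-34, Bysl, a factor for the small subunit's last maturation steps. It had 87.1, 90.0, 92.9 and 92.8 CPM with Mel321-31 and 93.4, 91.3, 90.5 and 94.4 CPM with Mel322-34. With MGO.53 it had 98.9, 111.2, 99.0 and 105.7 CPM, so no control library fell among those 8. The log2 fold change was -0.19 ± 0.041 with Mel321-31 (adjusted p = 0.00865) and -0.16 ± 0.042 with Mel322-34 (adjusted p = 0.0167, edgeR). With Mel321-35 it was -0.17 ± 0.051 with an adjusted p of 0.218. The list's medians were 0.0077, -0.019 and 0.014, and 14, 20 and 15 of the 34 genes were below 0.

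Of 43 genes for assembly of the large subunit, none passed with Mel321-31 and 1 fell with Mel322-34, Ebna1bp2, at 106 CPM, against 119 CPM with MGO.53 (log2 -0.17 ± 0.042, adjusted p = 0.0161, edgeR). With Mel322-34, 36 of the 43 were below 0, where 50.3% of genes of all lengths were, and the part of transcript length was not tested. With Mel321-31, 25 of the 43 were below 0, and with Mel321-35, 24. The median was -0.051 with Mel322-34, beside -0.013 with Mel321-31 and -0.0067 with Mel321-35. Of 42 other MYC target genes, 1 rose with Mel321-31, and 1 rose and 5 fell with Mel322-34. The gene that rose was Tfrc, the transferrin receptor for iron uptake, at 485 CPM with Mel321-31 and 496 CPM with Mel322-34, against 438 CPM with MGO.53. On the log2 scale Tfrc changed by 0.15 ± 0.038 (adjusted p = 0.0271) and 0.18 ± 0.038 (adjusted p = 0.00549, edgeR). With the sum of the 95 transcripts as a covariate, Tfrc was at 0.044 with Mel321-31 and not called. Its call held in 14 of 23 alternatives with Mel321-31, lost without Mel321-31 replicate 2, 3 or 4 or MGO.53 replicate 1, 2 or 4, and in 22 of 23 with Mel322-34. Among those that fell were Apex1, a DNA repair endonuclease, by a log2 of 0.18, Tmem97, the sigma-2 receptor, by 0.19, and Dctpp1, a nucleotide pyrophosphatase, by 0.23 (adjusted p = 0.0102, 0.0131 and 0.0131, edgeR). This list's medians were -0.010, -0.055 and -0.042.

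**Figure D4:**
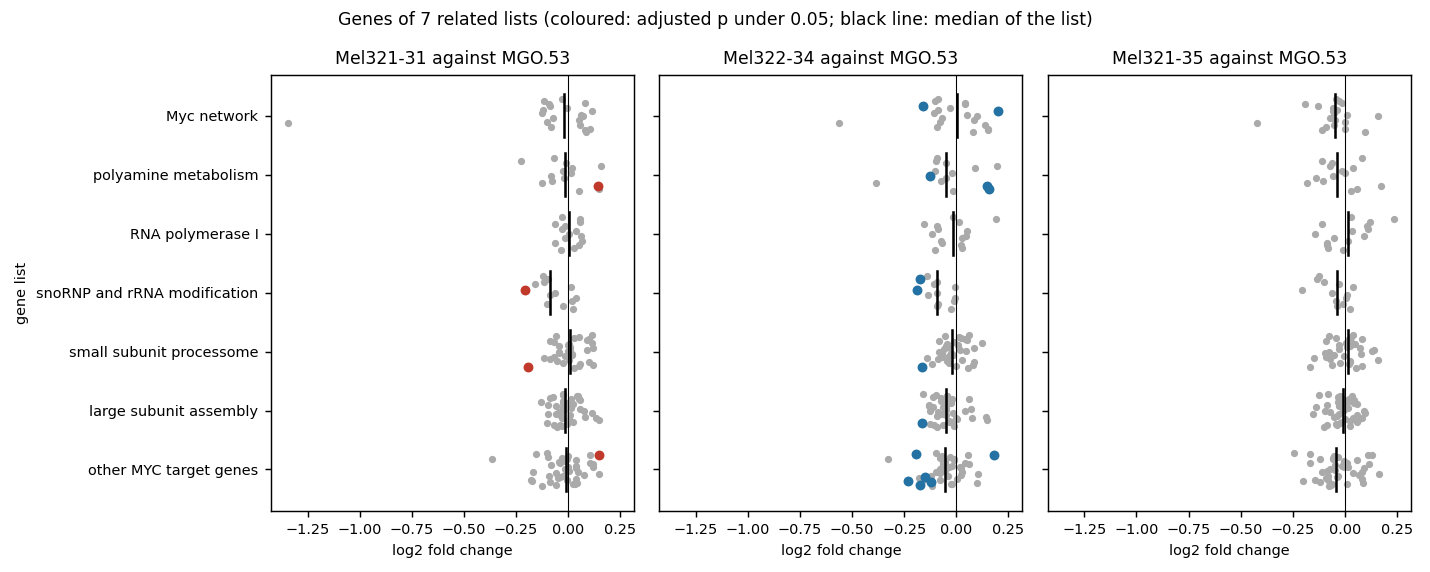
Log2 fold change over MGO.53 of each gene of the 7 lists, 1 row per list and 1 panel per antibody, with genes at an adjusted p under 0.05 coloured and the list's median as a black line. Most genes lie close to 0; the far point in the Myc network with Mel321-31 is Mlxipl, picked out after its value was seen, at only 0.195 CPM with that antibody (log2 -1.35, adjusted p = 0.232, edgeR).

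With the trend on transcript length removed, 2 list genes were higher and 4 lower with Mel321-31, against 2 and 2 without that correction. With Mel322-34, 2 were higher and 6 lower, against 4 and 11. Bysl and Tfrc passed with both antibodies in that fit and Ebna1bp2 passed with Mel322-34. Azin1, Nop10, Snu13, Eif5a and the other genes named from these lists did not pass. The remaining list genes that passed with Mel321-31 were newly called. With Mel322-34 that correction moved Azin1 to 0.097, Atp13a3 to 0.059, Eif5a to -0.057, Nop10 to -0.10, Apex1 to -0.098, Tmem97 to -0.12 and Dctpp1 to -0.11 on the log2 scale. With the sum of the 95 transcripts as a covariate, 1 list gene passed with Mel321-31 and 4 with Mel322-34, Eif5a, Nop10 and Dctpp1 among the 4. Azin1 with Mel321-31 was then at 0.085. Over 23 alternatives with Mel321-31, the call of Azin1 held in 14 and that of Bysl in 21. With Mel322-34 the call of Atp13a3 held in 14, Snu13 in 15, Azin1 and Ruvbl2 in 16 and Bysl in 18. Those of Ebna1bp2, Apex1 and Tmem97 held in 19, Dctpp1 in 21 and Eif5a in 22.

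The genes whose level followed that of Myc most closely over the 14 batch 1 libraries were Nfe2l2 (Pearson r 0.94 on log2 CPM), Actb (0.94), Pabpc1 (0.94), Nckap5l (0.93) and Gstm1 (0.93), out of 9273 genes of sufficient level. Their log2 fold changes ran from -0.095 to -0.19 with Mel321-31, -0.11 to -0.26 with Mel322-34 and -0.065 to -0.17 with Mel321-35. For Srm they were Cyc1 (0.89), Ctdsp1 (0.88) and Mrps7 (0.88), with log2 fold changes of -0.088 to -0.12, -0.10 to -0.19 and -0.066 to -0.12. The libraries share their groups and their depth, so these figures describe likeness in this set of libraries only.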

How the data were processed

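The submitters' processing notes name HTSeq 2.01, STAR 2.7.10a and DESeq2; genome build, annotation and strand setting were not given in the sources used. The authors deposited raw counts per gene for 55414 identifiers (6250 without values, 22365 at 0 throughout, 0 lines naming no gene, 0 further sample columns). They also deposited a normalised signal, equal to the count divided by 1 size factor per library. Mel321-35 replicate 2 was not analysed here.

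Raw counts of the 14 batch 1 libraries were fitted with edgeR 4.0.16 in R 4.3.3 (TMM scaling, default expression filter, quasi-likelihood F-test, 1 fit over 4 groups, 10 residual degrees of freedom, biological coefficient of variation 5.46%). Calls were made below an adjusted p of 0.05 (Benjamini-Hochberg, 14633 genes). SE and 95% intervals come from that fit. The members' summed level is given without the exact test planned for it, because the members had been chosen. Members and lists were chosen with earlier results of these data known. Named genes were the members, the 3 called genes of smallest p per list, antibody and direction, and the 5 and 3 genes most like Myc and Srm (Pearson r, average log2 CPM of at least 3). Alternatives were DESeq2 1.42.0, limma-voom (limma 3.58.1), other scalings, filters, thresholds and library sets, a replicate block, a length correction and a covariate.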

Additional observations from a re-analysis of the deposited data

Results flagged for a closer look

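In 4 of the 30 combinations of a member and a group of 4 libraries, 1 library stood apart from its group by more than Dixon's critical value for the gap divided by the range. Chance gives such a gap in about 1 of 20 groups. Each of the 4 was the lowest of its group. They were Max in Mel321-31 replicate 3 (gap ratio 0.903), Odc1 in Mel322-34 replicate 1 (0.860), Srm in MGO.53 replicate 2 (0.926) and Npm1 in MGO.53 replicate 1 (0.838). Without MGO.53 replicate 2, Srm was at -0.18 with Mel321-31 and -0.25 with Mel322-34 on the log2 scale.

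The batch 2 library of Mel321-35, which entered no test, was above every MGO.53 library for 5 members when all 15 libraries were scaled together. These were Odc1 at 515.5 CPM, Rrp12 at 63.9 CPM, Ncl at 2139 CPM, Npm1 at 1683 CPM and Fbl at 90.5 CPM. For Rrp12 the margin was less than 0.05 CPM, and on the scaling of the values listed in the report MGO.53 replicate 1 was the higher at 64.0 CPM. Since this library has no control of its own batch, the part of the batch in these values was not tested.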

How the results depend on the processing

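Myc kept a log2 fold change below 0 under every alternative run. It was called in 22 of 23 with Mel321-31 (range -0.27 to -0.18) and in 23 of 23 with Mel322-34 (-0.29 to -0.22). Srm was called in 17 and 23 of 23, and Nop2 with Mel322-34 in 11 of 23. With Mel321-31, where 2 members were called, 1 was called at an adjusted p under 0.01, 1 with the length trend removed and 0 with the covariate. Leaving out 1 library gave 1 to 2, and the call of Srm was lost without Mel321-31 replicate 2 or 4 or MGO.53 replicate 4. With Mel322-34, where 3 were called, DESeq2, upper quartile scaling and a minimum of 10 CPM in 4 libraries each gave 5, adding Nop56 and Rrp12. Leaving out 1 library gave 2 to 4.

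All genes called numbered 517 with Mel321-31, 1005 with Mel322-34 and 6 with Mel321-35. At an adjusted p under 0.01 they numbered 148, 247 and 0. With the covariate they numbered 5, 371 and 52, and with the length trend removed 373 with Mel322-34 and 27 with Mel321-35. All 15 libraries without a batch term gave 91 with Mel321-31. For Mel321-35, DESeq2 gave 73, no filter on low counts 95 and a fit of the 2 groups alone 42. Leaving out 1 library gave 136 (without Mel321-31 replicate 2) to 1238 (without Mel321-31 replicate 1), 327 (without Mel322-34 replicate 3) to 1051 (without Mel322-34 replicate 2), and 0 to 21 (without Mel321-35 replicate 3). The causes were not tested.

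The deviations of same-numbered libraries correlated at r -0.15 to 0.25 over 18 pairs (median 0.043, against 0.0032 for other numbers). Of these, 4 were over 0.1, among them the 3 pairs between replicate 3 of Mel322-34, Mel321-35 and MGO.53. Since not every pair was over 0.1, the numbers were not taken to pair samples, but that rule cannot decide whether they do. Deviations were taken from the mean of each group, so the 2 batch 1 libraries of Mel321-35 mirror each other. With Mel322-34 replicate 3 their r was 0.25 and -0.25. With the replicate block, 2, 3 and 0 members and 636, 1209 and 5 genes were called, against 517, 1005 and 6 genes without it. Scaling moved the median of all genes by less than 0.05 on the log2 scale.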
